A study of Mus musculus with 15 samples.

Results

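The circadian clock genes described here are 10 transcripts, *Arntl* (also called *Bmal1*), *Clock*, *Per1*, *Per2*, *Per3*, *Cry1*, *Cry2*, *Nr1d1*, *Nr1d2* and *Dbp*, taken by name from the 24134 genes listed in the count tables. All 10 were found, and all 10 passed the filter on low counts in every fit, with 178 to 2284 reads per library. The cells were primary cultured articular chondrocytes of ICR mice, freed by collagenase from the knee joint surfaces of pups aged 4 to 5 days and used at passage 0 in medium with 10% fetal bovine serum. In the drug table, 3 cultures each received the vehicle DMSO, 10 μM XAV939 or 10 μM IWR-1 for 108 h. In the siRNA table, 3 cultures each were transfected with a control siRNA (siCtrl) or with siRNAs against both *Tnks* and *Tnks2* (siTnks/2), and no time was given. XAV939 and IWR-1 are small molecules of different scaffolds that occupy different subsites of the catalytic domain of tankyrase, the enzyme encoded by *Tnks* and *Tnks2*. The question was which clock transcripts changed when tankyrase was depleted or inhibited.

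The clock is a feedback loop of transcription. CLOCK and BMAL1, the product of *Arntl*, form a dimer that binds E-boxes and drives the *Per*, *Cry*, *Nr1d1*, *Nr1d2* and *Dbp* genes. The PER and CRY proteins repress that dimer, and the REV-ERB receptors encoded by *Nr1d1* and *Nr1d2* repress *Arntl* at ROR elements, where ROR receptors act as activators. DBP is an output factor that binds D-boxes. Cartilage runs such a clock in its own cells, and loss of BMAL1 from mouse chondrocytes is known to damage articular cartilage. Each group was sampled at 1 time only, and no step to synchronise the cultures was described, so a shift in the phase of a daily rhythm and a shift in its mean level cannot be told apart in these data.

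The stretches of 250 bases upstream of the annotated start are shown for the 4 clock genes that later moved in both drug comparisons, to place their regulatory letters beside their values. They are RefSeq sequences of build GRCm38.p6, read 5′ to 3′ on the strand of the gene. The *Per3* window is chr4:151044666-151044915 on the minus strand, and the *Per1* window, the first of a pair of annotated windows, is chr11:69098699-69098948 on the plus strand. The *Arntl* window, also the first of a pair, is chr7:113207215-113207464 and the *Dbp* window is chr7:45704997-45705246, both on the plus strand. Capitals mark an E-box or a D-box.
Per3: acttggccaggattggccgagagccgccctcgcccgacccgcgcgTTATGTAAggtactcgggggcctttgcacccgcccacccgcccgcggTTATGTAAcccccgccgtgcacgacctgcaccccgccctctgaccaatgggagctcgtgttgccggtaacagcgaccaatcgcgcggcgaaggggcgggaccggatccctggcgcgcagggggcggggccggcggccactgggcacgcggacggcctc
Per1: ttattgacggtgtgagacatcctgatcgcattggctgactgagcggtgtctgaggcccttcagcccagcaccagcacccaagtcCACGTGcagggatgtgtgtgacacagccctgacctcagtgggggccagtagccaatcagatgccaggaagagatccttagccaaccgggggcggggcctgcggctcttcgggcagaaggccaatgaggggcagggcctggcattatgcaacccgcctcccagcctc
Arntl: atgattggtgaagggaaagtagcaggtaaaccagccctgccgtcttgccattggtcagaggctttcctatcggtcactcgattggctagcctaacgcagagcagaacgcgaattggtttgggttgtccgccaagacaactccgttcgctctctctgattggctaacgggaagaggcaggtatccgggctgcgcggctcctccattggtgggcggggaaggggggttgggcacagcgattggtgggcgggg
Dbp: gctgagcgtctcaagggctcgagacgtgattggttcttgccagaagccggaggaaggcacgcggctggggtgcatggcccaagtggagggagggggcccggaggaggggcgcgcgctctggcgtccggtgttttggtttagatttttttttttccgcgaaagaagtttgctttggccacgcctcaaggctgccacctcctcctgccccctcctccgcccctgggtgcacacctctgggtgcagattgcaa
The letters searched on both strands were CACGTG (E-box), CACGTT (E-box variant), TTATGTAA and TTACGTAA (D-box), TAGGTCA and TGGGTCA (ROR element core) and TGACGTCA (cyclic AMP response element). *Per3* held 2 D-boxes, 205 and 158 bases before its start, where 0.931% of 32851 windows of this length held at least 1. The first *Per1* window held an E-box 166 bases before its start, a motif found in 6.02% of windows. *Cry1* held an E-box 60 bases and an E-box variant 79 bases before its start. The variant, present in 3.85% of windows, also lay 166 bases before the start of *Cry2* and 28 bases before that of *Nr1d1*. The ROR element core (5.38% of windows) and the cyclic AMP response element (1.55%) matched in no window of these genes, and no motif matched in *Arntl*, *Clock*, *Nr1d2*, *Dbp* or the second *Per1* window. *Per2* had no entry. These matches describe letters in a short window and do not show binding. Bases outside the windows were not searched, so a gene without a match may hold the element elsewhere.

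The libraries held 26857070 to 36615194 reads counted on genes. In the check of the labels, *Tnks* stood at 69.0, 58.4 and 70.1 CPM (read counts scaled to library size) in siCtrl and at 19.5, 12.7 and 24.0 CPM in siTnks/2, and *Tnks2* fell to 0.465 times its control level. Among the controls, DMSO replicate 3 stood apart for several transcripts, with *Tnks* at 64.1 CPM beside 26.2 and 20.02 CPM in replicates 1 and 2, and results that turn on it are given with and without it. The labelled cell type was borne out by *Col2a1*, *Acan* and the other chondrocyte markers, none of 10 being at 0 in any group. Their summed level was 27560 to 37154 CPM in DMSO, 38524 to 57551 CPM in XAV939, 93840 to 118557 CPM in IWR-1, 90977 to 121401 CPM in siCtrl and 130276 to 210335 CPM in siTnks/2. Endothelial and skeletal muscle markers summed to less than 7 CPM in every library.

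The calls differed between knockdown and inhibitors, and the differences of effects themselves are tested further on. In knockdown cells, 1 of 10 clock genes changed, and it was *Arntl*, which rose 1.41-fold. With XAV939, 4 of 10 changed, and *Arntl* and *Per1* fell while *Per3* and *Dbp* rose. With IWR-1, 6 of 10 changed, with *Arntl*, *Per1* and *Per2* lower and *Per3*, *Nr1d2* and *Dbp* higher. A gene was counted as changed at an adjusted p-value under 0.05 in edgeR's quasi-likelihood test, adjusted over all genes tested. By that rule 18% of 13672 genes changed on knockdown, 17.4% of 13873 with XAV939 and 36.4% with IWR-1. The knockdown share over all genes rested on single libraries, at 4.40%, 6.72%, 4.91% and 5.78% without siCtrl replicate 1, 2 or 3 or siTnks/2 replicate 1, so it gives no order against the 1 of 10 clock genes. With XAV939 the share over all genes was 9.45% without DMSO replicate 1. No clock gene passed the DEG limits of the study, a fold change above 3 with an adjusted p-value under 1e-05, in edgeR or in DESeq2. In edgeR, 0 genes passed them on knockdown, 0.00721% with XAV939 and 1.05% with IWR-1. The study applied these limits to DESeq2 results and reported DEGs in all 3 of its comparisons, so these shares are not its counts. At an unadjusted p-value under 0.05, 2, 5 and 7 clock genes were counted in the 3 comparisons, both by edgeR and by DESeq2, where edgeR counted 35.6%, 32.4% and 45.2% of all genes. The changes of all 10 genes are drawn in the plot of log2 fold changes.

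**Figure D1:**
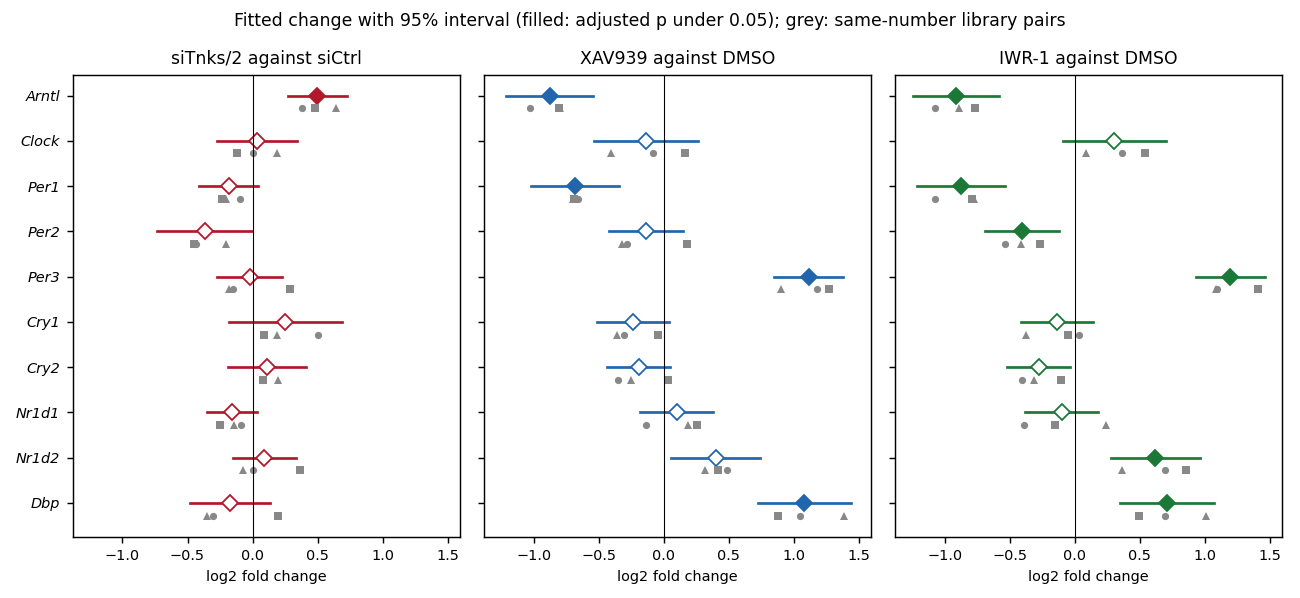
Log2 fold changes of the 10 clock genes (horizontal axis) in siTnks/2 against siCtrl, XAV939 against DMSO and IWR-1 against DMSO, with 95% intervals as bars and the 3 differences between libraries of the same replicate number as points. *Per3* lay at 1.11 with XAV939 and 1.20 with IWR-1 and at -0.02 on knockdown, and *Arntl* lay at -0.88 and -0.91 with the inhibitors and at 0.50 on knockdown.

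The changes were mostly small. The median absolute log2 fold change of the clock genes was 0.17 on knockdown beside 0.21 over all genes, 0.32 with XAV939 beside 0.24, and 0.51 with IWR-1 beside 0.31. Signs were mixed, since 5, 4 and 4 of the 10 log2 fold changes were above 0 in the 3 comparisons. The 3 treated libraries lay wholly above or below the 3 control libraries for 2 clock genes on knockdown, where 43.8% of all genes did so, for 4 with XAV939 (33.2% of all genes) and for 7 with IWR-1 (51.1%). The inhibitor comparisons share the same DMSO libraries and are not independent of each other.

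*Arntl*, which encodes the activator BMAL1, was the only clock gene that passed the threshold in all 3 comparisons. Its level was 36.2, 29.6 and 39.0 CPM in the DMSO libraries, 17.7, 16.9 and 22.4 CPM under XAV939 and 17.1, 17.3 and 21.1 CPM under IWR-1. Every inhibitor library was thus below every DMSO library. The change on the log2 scale was -0.88 (SE 0.15, adjusted p = 0.00298) for XAV939 and -0.91 (SE 0.15, adjusted p = 0.00076) for IWR-1, or 0.544 and 0.530 times the DMSO level. In the siRNA table *Arntl* measured 16.2, 17.2 and 14.4 CPM in siCtrl and 21.0, 24.0 and 22.5 CPM in siTnks/2, again without overlap but in the opposite direction. This rise was 0.50 on the log2 scale (SE 0.09, adjusted p = 0.0171), and it missed the threshold without siCtrl replicate 1 (0.52, adjusted p = 0.0692) or siCtrl replicate 3 (0.43, adjusted p = 0.0658), so the knockdown count falls to 0 of 10 without either library.

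*Clock*, the partner of BMAL1, did not pass the threshold in any comparison. Its DMSO libraries held 36.9, 35.2 and 57.0 CPM, a wide spread with replicate 3 the highest, against 34.9, 39.4 and 43.1 CPM under XAV939 and 47.5, 51.2 and 60.6 CPM under IWR-1. The log2 fold change was -0.14 (95% interval -0.54 to 0.26) for XAV939 and 0.30 (-0.10 to 0.70) for IWR-1. Without DMSO replicate 3 these were 0.11 and 0.55, the latter past the threshold (adjusted p = 0.00859), as it was with the replicate number as a block (0.32, adjusted p = 0.0266). On knockdown *Clock* measured 63.3, 56.8 and 65.4 CPM in siCtrl and 63.4, 52.2 and 74.5 CPM in siTnks/2, a difference of 0.04 (-0.27 to 0.34).

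**Figure D2:**
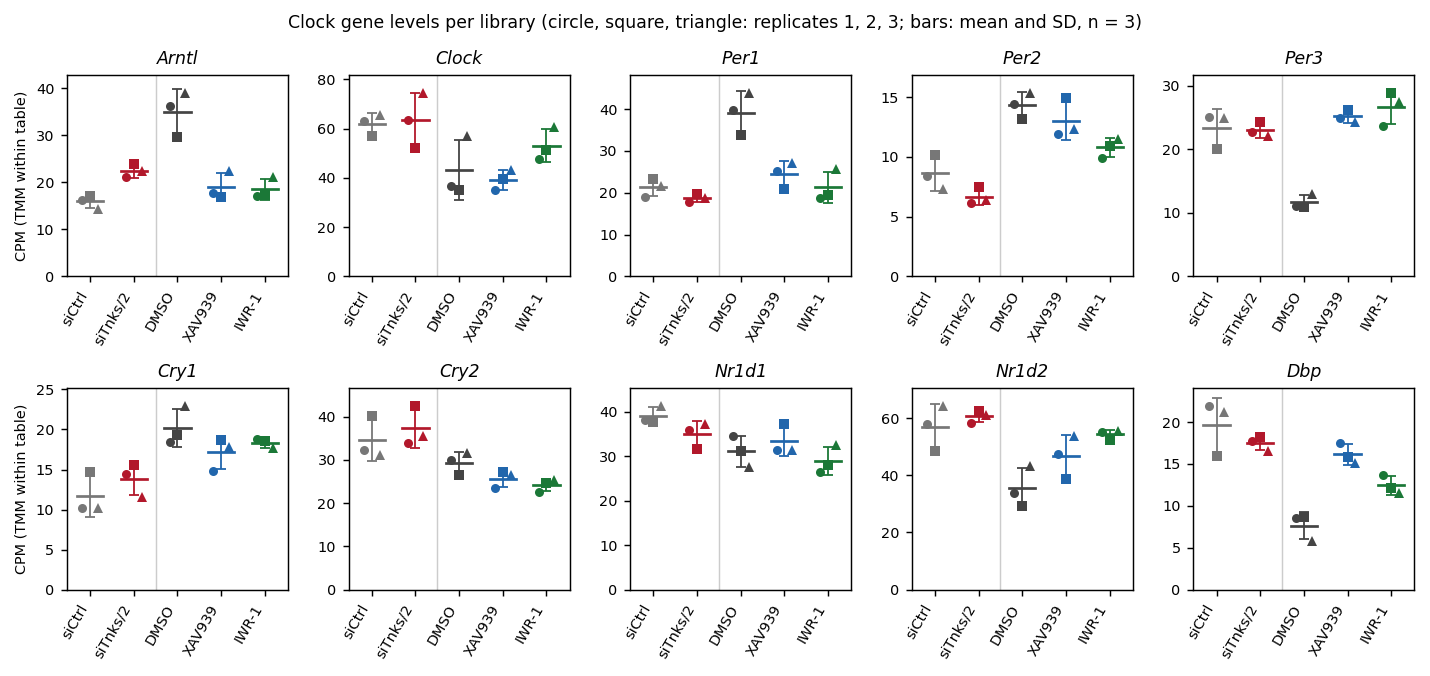
Level of each clock gene in every library, in CPM scaled by TMM within each table, with points for the 3 replicates and bars for the mean and SD of each group (siCtrl, siTnks/2, DMSO, XAV939, IWR-1). For *Per3* the DMSO points lie between 10.9 and 12.98 CPM and the inhibitor points between 23.6 and 28.9 CPM, while the siRNA groups overlap.

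The 3 *Per* genes, which encode partly redundant repressors, did not move alike with the inhibitors. *Per1*, a gene that serum and hormones induce within hours, stood at 39.8, 33.8 and 43.9 CPM in DMSO, 25.1, 20.9 and 27.0 CPM under XAV939 and 18.8, 19.5 and 25.6 CPM under IWR-1. It fell without overlap in both, to 0.623 times DMSO with XAV939 (log2 fold change -0.68, SE 0.15, adjusted p = 0.0124) and 0.545 times with IWR-1 (-0.88, SE 0.15, adjusted p = 0.00121). *Per3* went the other way, from 11.04, 10.86 and 12.98 CPM in DMSO to 24.9, 26.2 and 24.3 CPM under XAV939 and 23.6, 28.9 and 27.5 CPM under IWR-1. These rises of 2.16-fold (log2 1.11, SE 0.12, adjusted p = 0.000214) and 2.29-fold (log2 1.20, SE 0.12, adjusted p = 2.97e-05) had the smallest adjusted p-values of any clock gene in either comparison. The *Per3* window with 2 D-boxes and the *Per1* window with an E-box are printed above.

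*Per2* measured 14.4, 13.2 and 15.4 CPM in DMSO, 11.9, 14.9 and 12.3 CPM under XAV939 and 9.94, 10.95 and 11.54 CPM under IWR-1. With XAV939 the libraries overlapped those of DMSO (log2 fold change -0.14, 95% interval -0.42 to 0.15). With IWR-1 all 3 were lower, and the fall of 0.41 on the log2 scale (SE 0.13) passed the threshold with an adjusted p-value of 0.0298. That call was lost without DMSO replicate 1 (adjusted p = 0.0818), DMSO replicate 3 (0.0735), IWR-1 replicate 1 (0.116) or IWR-1 replicate 2 (0.083).

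On knockdown, no *Per* gene passed the threshold. *Per1* measured 19.0, 23.2 and 21.6 CPM in siCtrl and 17.7, 19.7 and 18.8 CPM in siTnks/2 (log2 fold change -0.18, 95% interval -0.41 to 0.04). *Per3* was at 25.1, 19.99 and 24.9 CPM against 22.7, 24.3 and 21.99 CPM (-0.02, -0.27 to 0.23). The *Per2* values were 8.37, 10.2 and 7.32 CPM in siCtrl and 6.18, 7.45 and 6.36 CPM in siTnks/2, which overlapped but were lower in each of the 3 pairs with the same replicate number. The change on the log2 scale was -0.37 (SE 0.15, adjusted p = 0.137), and with the replicate number as a block it passed the threshold (-0.36, adjusted p = 0.0407), which raised the knockdown count to 2 of 10 where 34.6% of all genes passed.

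The cryptochromes *Cry1* and *Cry2*, the other limb of the repressor complex, did not pass the threshold in any of the 3 comparisons. *Cry1* held 18.4, 19.3 and 22.9 CPM in DMSO, 14.8, 18.7 and 17.9 CPM under XAV939 and 18.8, 18.6 and 17.6 CPM under IWR-1. Its log2 fold changes were -0.24 (95% interval -0.52 to 0.04) and -0.14 (-0.42 to 0.14). *Cry2* held 29.9, 26.5 and 31.5 CPM in DMSO, 23.4, 27.2 and 26.4 CPM under XAV939 and 22.5, 24.7 and 25.3 CPM under IWR-1, where every library was below DMSO. Its log2 fold change with IWR-1 was -0.28 (SE 0.11, adjusted p = 0.0679), and it passed the threshold with the block (adjusted p = 0.033) and without DMSO replicate 2 (-0.35, adjusted p = 0.0458). On knockdown both genes had overlapping groups, *Cry1* with 10.1, 14.7 and 10.2 against 14.4, 15.6 and 11.6 CPM (0.25, -0.18 to 0.69) and *Cry2* with 32.3, 40.1 and 31.1 against 33.9, 42.4 and 35.6 CPM (0.11, -0.18 to 0.41). Replicate 2 of *Cry1* and *Cry2* was the highest of its group in both siRNA groups. The exons of *Cry2* share 295 bases (4.67%) with *D930015M05Rik* on the opposite strand.

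Of the REV-ERB receptor genes, *Nr1d2* passed the threshold with IWR-1 and *Nr1d1* in no comparison. *Nr1d1*, which encodes REV-ERBα, measured 34.5, 31.2 and 27.5 CPM in DMSO, 31.4, 37.2 and 31.3 CPM under XAV939 and 26.4, 27.96 and 32.4 CPM under IWR-1, with overlap in both and log2 fold changes of 0.10 (95% interval -0.18 to 0.38) and -0.10 (-0.38 to 0.18). *Nr1d2*, which encodes REV-ERBβ, measured 33.9, 29.1 and 43.1 CPM in DMSO, 47.5, 38.8 and 53.6 CPM under XAV939 and 54.97, 52.45 and 55.52 CPM under IWR-1. With IWR-1 it rose 1.54-fold without overlap (log2 0.62, SE 0.15, adjusted p = 0.00922). With XAV939 the groups overlapped although each library exceeded the DMSO library of its own number, and the difference of 0.40 (SE 0.15, adjusted p = 0.1) passed the threshold with the block (adjusted p = 0.0111) and without DMSO replicate 3 (0.55, adjusted p = 0.0233). The block thus raised the XAV939 count to 5 of 10, where 33.4% of all genes passed, and the IWR-1 count to 8 of 10, where 47.5% passed.

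On knockdown *Nr1d1* had 38.2, 37.5 and 41.2 CPM in siCtrl and 35.8, 31.6 and 37.2 CPM in siTnks/2. These did not overlap, but the difference of -0.16 (SE 0.08, adjusted p = 0.202) did not pass the threshold. *Nr1d2* had 58.0, 48.5 and 64.1 CPM against 58.3, 62.6 and 61.0 CPM, a difference of 0.09 (-0.15 to 0.33). The *Nr1d1* exons share 263 bases (8.55%) with *Thra* on the opposite strand, and the strand setting of the counting was not stated, so some of its reads may belong to that gene.

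*Dbp*, the output factor, was at 8.51, 8.61 and 5.75 CPM in DMSO, 17.5, 15.8 and 15.1 CPM under XAV939 and 13.7, 12.1 and 11.6 CPM under IWR-1. All inhibitor libraries exceeded all DMSO libraries. It rose 2.12-fold with XAV939 (log2 1.08, SE 0.16, adjusted p = 0.00153) and 1.63-fold with IWR-1 (log2 0.71, SE 0.16, adjusted p = 0.00593), and without DMSO replicate 3, its lowest library, the log2 values were 0.90 and 0.53. On knockdown the values were 21.9, 15.9 and 21.2 CPM in siCtrl and 17.7, 18.2 and 16.6 CPM in siTnks/2, overlapping, with a difference of -0.17 (95% interval -0.48 to 0.14). The exons of *Dbp* share 539 bases (18%) with *Sphk2* on the opposite strand, the largest such overlap among the 10 genes.

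*Arntl* and *Per1* thus fell while *Per3* and *Dbp* rose, and these 4 calls with XAV939 held in each of the fits that left out 1 library. The 5 calls with IWR-1 other than *Per2* held likewise. Ratios within a library show the opposed movements without any scaling between libraries. The *Dbp* to *Arntl* ratio was 0.235, 0.291 and 0.147 in DMSO, 0.989, 0.936 and 0.672 with XAV939 and 0.8, 0.698 and 0.549 with IWR-1. The *Per3* to *Per1* ratio was 0.278, 0.321 and 0.296 in DMSO, 0.991, 1.25 and 0.898 with XAV939 and 1.25, 1.48 and 1.07 with IWR-1. On knockdown the *Dbp* to *Arntl* ratio was lower, at 0.842, 0.759 and 0.738 against 1.35, 0.927 and 1.47 in siCtrl, and the *Per3* to *Per1* ratio overlapped, at 1.28, 1.24 and 1.17 against 1.32, 0.863 and 1.15.

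**Figure D3:**
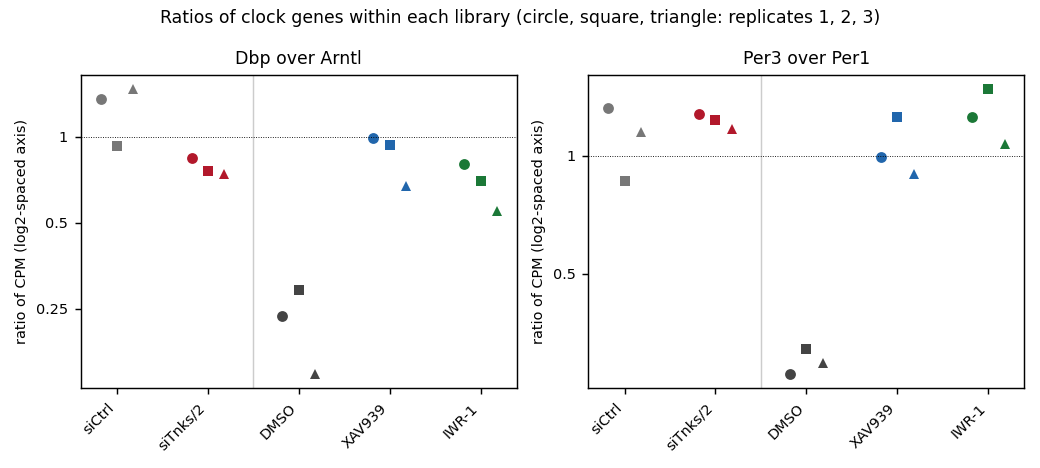
Ratios of CPM between pairs of clock genes in each library on a log2-spaced axis, by group. The *Dbp* to *Arntl* ratio lies between 0.147 and 0.291 in DMSO and between 0.549 and 0.989 in the inhibitor libraries, and the *Per3* to *Per1* ratio between 0.278 and 0.321 and between 0.898 and 1.48.

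Further ratios described the partners of each family. *Arntl* relative to *Clock* was 0.981, 0.840 and 0.684 in DMSO, 0.508, 0.429 and 0.520 with XAV939 and 0.361, 0.338 and 0.348 with IWR-1, so the 3 groups did not overlap. *Nr1d2* relative to *Nr1d1* was 0.982, 0.933 and 1.57 in DMSO and 2.08, 1.88 and 1.71 with IWR-1, while the XAV939 values of 1.51, 1.04 and 1.71 spanned much of the DMSO range.

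The inhibitors were compared directly at the same dose and time. None of the 10 clock genes differed between IWR-1 and XAV939 at an adjusted p-value under 0.05 in edgeR or in DESeq2, where 17.6% of 13873 genes did so in edgeR (7.37% higher and 10.2% lower with IWR-1), and 2 clock genes had an unadjusted p-value under 0.05 in each tool, where 31.2% of all genes did in edgeR. Those of edgeR were *Clock*, with a difference of 0.44 on the log2 scale (95% interval 0.04 to 0.84, adjusted p = 0.122), and *Dbp*, at -0.37 with IWR-1 relative to XAV939 (-0.72 to -0.02, adjusted p = 0.137). Both were in the same direction in 3 of 3 pairs with the same replicate number and both passed the threshold with the block (adjusted p = 0.00972 and 0.0311), where 30.7% of all genes passed. The libraries of the 2 drugs did not overlap for 3 clock genes, *Clock*, *Per2* and *Dbp*, beside 37.6% of all genes. The closest agreement was that of *Arntl*, with a difference of -0.04 (-0.37 to 0.30), and *Per3* differed by 0.08 (-0.17 to 0.34). For the remaining 6 genes the differences lay between -0.27 for *Per2* and 0.22 for *Nr1d2*, and their intervals reached from -0.55 to 0.56, so differences within that range remain possible.

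The effects of knockdown and inhibitor were then compared in 1 model over all 15 libraries. For *Arntl* the knockdown effect exceeded that of XAV939 by 1.39 (95% interval 0.98 to 1.81, adjusted p = 0.000536) and that of IWR-1 by 1.42 (1.01 to 1.84, adjusted p = 0.000134). The *Per3* effect was lower on knockdown, with a difference of -1.12 from XAV939 (adjusted p = 0.000764) and of -1.21 from IWR-1 (adjusted p = 0.000139). The *Dbp* effect differed in the same way, by -1.24 (adjusted p = 0.00251) and -0.87 (adjusted p = 0.00937). *Per1* differed from IWR-1 by 0.70 (0.28 to 1.13, adjusted p = 0.0181) and from XAV939 by 0.52 (0.09 to 0.94, adjusted p = 0.099). These are 3 of 10 clock genes against XAV939, where 13.5% of 14271 genes passed (8.07% higher and 5.4% lower on knockdown), and 4 of 10 against IWR-1, where 24.4% passed (13.9% higher and 10.5% lower). With the block the counts were 5 and 6, where 28.2% and 36.3% of all genes passed, adding *Per1* and *Cry1* against XAV939 and *Cry2* and *Nr1d2* against IWR-1. The siRNA and drug tables are separate experiments with different controls, and no time is given for the transfections, so the kind of perturbation and the experiment cannot be told apart.

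In DMSO and siCtrl, the mean levels of *Arntl*, *Per3* and *Dbp* were unlike. *Arntl* averaged 34.9 ± 4.86 CPM (SD, n = 3) in DMSO and 15.9 ± 1.40 CPM in siCtrl, *Per3* 11.6 ± 1.18 and 23.3 ± 2.91 CPM, and *Dbp* 7.62 ± 1.62 and 19.7 ± 3.26 CPM. CPM were scaled within each table, so these levels are set side by side without a test. With XAV939 and IWR-1, *Arntl* averaged 19.0 ± 2.97 and 18.5 ± 2.22 CPM and *Per3* 25.15 ± 0.992 and 26.6 ± 2.74 CPM. These levels were nearer to siCtrl than those of DMSO were. By group mean the same held with both drugs for *Per1*, *Per2*, *Cry1*, *Nr1d2* and *Dbp*. *Cry2* lay farther from siCtrl with both, at 25.7 and 24.2 CPM beside 29.3 CPM in DMSO and 34.5 CPM in siCtrl. *Clock* lay farther with XAV939 only, at 39.1 CPM beside 43.1 CPM in DMSO and 61.8 CPM in siCtrl. *Nr1d1* lay farther with IWR-1 only, at 28.9 CPM beside 31.1 and 39.0 CPM.

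Levels were compared between genes as CPM per kilobase of exon. In DMSO the order ran from *Nr1d1* at 10.1 ± 1.15 (SD, n = 3) through *Per1* (6.95), *Nr1d2* (6.54), *Cry1* (6.05), *Arntl* (4.64), *Cry2* (4.64), *Clock* (3.14), *Dbp* (2.55) and *Per2* (2.44) to *Per3* at 1.21 ± 0.123. Neighbours from *Per1* to *Cry1* overlapped in their library ranges, as did *Arntl* with *Cry2* and the run from *Clock* to *Per2*, whereas *Nr1d1* and *Per3* stood clear of their neighbours. With XAV939 and IWR-1, *Per2* took the lowest place at 2.23 ± 0.279 and 1.85 ± 0.138, and *Dbp* moved up to 5.39 ± 0.426 and 4.16 ± 0.374, although *Per2* with XAV939 still overlapped *Arntl*, the next gene in order. In the siRNA table *Nr1d1* was again highest (12.7 ± 0.634 in siCtrl and 11.3 ± 0.950 in siTnks/2, where its libraries overlapped those of *Nr1d2*) and *Per2* lowest (1.47 ± 0.246 and 1.14 ± 0.117).

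**Figure D4:**
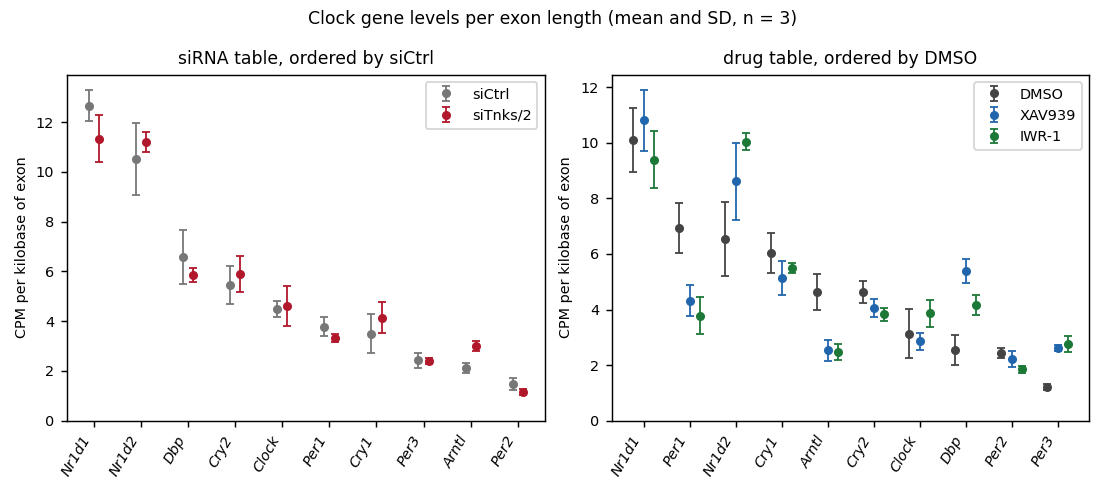
Mean level of the 10 clock genes per kilobase of exon, with SD bars over 3 libraries, ordered by siCtrl for the siRNA table and by DMSO for the drug table. *Per3* is the lowest gene in DMSO at 1.21, and *Per2* is the lowest in each of the 4 other groups.

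A wider list of 23 further clock components was counted in the same fits, and 22 of them were tested, the ROR receptor gene *Rorb* being too low. With XAV939, 8 changed, 2 higher and 6 lower, where 7.57% of all genes were higher and 9.85% lower. With IWR-1, 6 changed and all were lower, where 20.2% of genes were lower and 16.2% higher. On knockdown 2 changed, *Usp2* upward and *Tef* downward, where 10.4% of genes were higher and 7.61% lower. With the block these counts were 12, 10 and 6, where 33.4%, 47.5% and 34.6% of all genes passed. The balance of the XAV939 calls over all genes moved with scaling, 43.5% of them being higher here and 53.3% under upper-quartile scaling. The median log2 fold change of the list was -0.19 with XAV939, -0.16 with IWR-1 and 0.04 on knockdown, beside 0.02, 0.01 and -0.0012 over all genes.

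Of the activators and ROR receptors, *Rora*, which encodes a receptor that activates *Arntl*, stood at 83.3, 77.1 and 113 CPM in DMSO, 39.0, 35.5 and 49.4 CPM under XAV939 and 37.9, 39.0 and 45.4 CPM under IWR-1. Its log2 fold changes were -1.14 (SE 0.17, adjusted p = 0.00128) and -1.16 (SE 0.17, adjusted p = 0.000321), so it fell together with *Arntl*. *Npas2* and *Arntl2*, which encode relatives of CLOCK and BMAL1, did not pass the threshold in the 3 comparisons, although *Arntl2* with XAV939, at 0.48 (adjusted p = 0.165), passed it with the block (0.49, adjusted p = 0.0373).

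Among the repressors and D-box factors, *Bhlhe40* and *Bhlhe41* encode DEC1 and DEC2, which oppose CLOCK and BMAL1 at E-boxes. *Bhlhe40* was at 214, 187 and 221 CPM in DMSO, 100.5, 95.3 and 121 CPM under XAV939 and 93.0, 105 and 114 CPM under IWR-1, and *Bhlhe41* at 38.1, 32.9 and 36.4, 10.8, 13.3 and 16.6, and 17.56, 19.80 and 18.004 CPM. Both fell with both drugs, *Bhlhe40* by 0.97 and 0.99 on the log2 scale and *Bhlhe41* by 1.40 and 0.96. *Ciart*, whose product CHRONO represses the same dimer, fell with XAV939 from 34.7, 32.6 and 26.4 CPM to 17.0, 18.8 and 13.9 CPM (log2 fold change -0.92, adjusted p = 0.00217). With IWR-1 it measured 25.0, 29.3 and 24.1 CPM (-0.26, adjusted p = 0.197, and 0.04996 with the block), and the direct difference between the drugs of 0.66 passed the threshold (adjusted p = 0.011). *Nfil3*, which encodes a repressor at the D-boxes that DBP activates, fell with IWR-1 from 88.3, 88.6 and 69.7 CPM to 45.1, 42.9 and 44.97 CPM (-0.89, adjusted p = 0.000627) and differed from XAV939 by -0.59 (adjusted p = 0.01655). *Timeless*, which in mammals acts at replication forks, rose by 0.70 with XAV939 (adjusted p = 0.0078). It was at 0.38 with IWR-1 (adjusted p = 0.0613, and 0.0155 with the block), and at -0.74 on knockdown, where every siTnks/2 library was below every siCtrl library (adjusted p = 0.0704, and 0.0386 with the block).

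Of the kinases and ubiquitin enzymes that set PER and CRY stability, *Csnk1e*, which encodes a casein kinase that phosphorylates PER proteins, measured 55.7, 47.4 and 49.2 CPM in DMSO, 40.9, 38.4 and 36.0 CPM under XAV939 and 30.4, 29.8 and 31.3 CPM under IWR-1. It fell in both (log2 fold changes -0.40 and -0.73, adjusted p = 0.018 and 0.00021) and further with IWR-1 than with XAV939 (-0.33, adjusted p = 0.0404). The XAV939 call was lost without DMSO replicate 1 (adjusted p = 0.0901) and in the fit of the 2 groups alone (0.0584). *Fbxw11* fell by 0.31 with IWR-1 (adjusted p = 0.0238) and lost its call without DMSO replicate 1 or 3 or IWR-1 replicate 1 or 3. Among the outputs, *Nampt*, the enzyme of NAD salvage, fell by 0.53 with XAV939 (adjusted p = 0.0153) and lost its call without XAV939 replicate 1 (0.0606).

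On knockdown, *Usp2*, a deubiquitinase gene, rose by 0.49 (adjusted p = 0.041) and *Tef*, a D-box factor related to *Dbp*, fell by 0.30 (adjusted p = 0.0339). The *Usp2* call was lost without any 1 of 5 libraries and the *Tef* call without any 1 of 4. The count of 2 was 0 without siCtrl replicate 1, siCtrl replicate 3 or siTnks/2 replicate 1, where 4.4%, 4.91% and 5.78% of all genes passed. It was 1 without siCtrl replicate 2, where 6.72% of all genes passed. The direct contrast of the drugs called 3 of the 22 genes, where 17.6% of all genes passed (6 with the block, where 30.7% did). The count of 3 fell to 1 without XAV939 replicate 1 or IWR-1 replicate 1, where 11.9% and 10.1% of all genes passed. It was 0 without IWR-1 replicate 2, where 9.57% of all genes passed. In the comparison of effects, 5 of the 22 genes differed between knockdown and XAV939, 3 higher and 2 lower on knockdown, where 13.5% of all genes differed. Against IWR-1, 9 differed, 7 higher and 2 lower, where 24.4% of all genes did. With the block the counts were 11 and 10, where 28.2% and 36.3% of all genes passed. Of these, *Rora*, *Bhlhe40* and *Bhlhe41* were higher on knockdown than with XAV939 by 1.26, 1.31 and 1.75 and than with IWR-1 by 1.27, 1.33 and 1.31. *Timeless* was lower on knockdown by 1.42 than with XAV939 (adjusted p = 0.00456) and by 1.11 than with IWR-1 (adjusted p = 0.00918). *Tef* was lower by 0.45 than with XAV939 (adjusted p = 0.0447), and *Wee1*, a kinase gene of the cell cycle named here after its values were seen, by 0.80 than with IWR-1 (adjusted p = 0.0473).

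**Figure D5:**
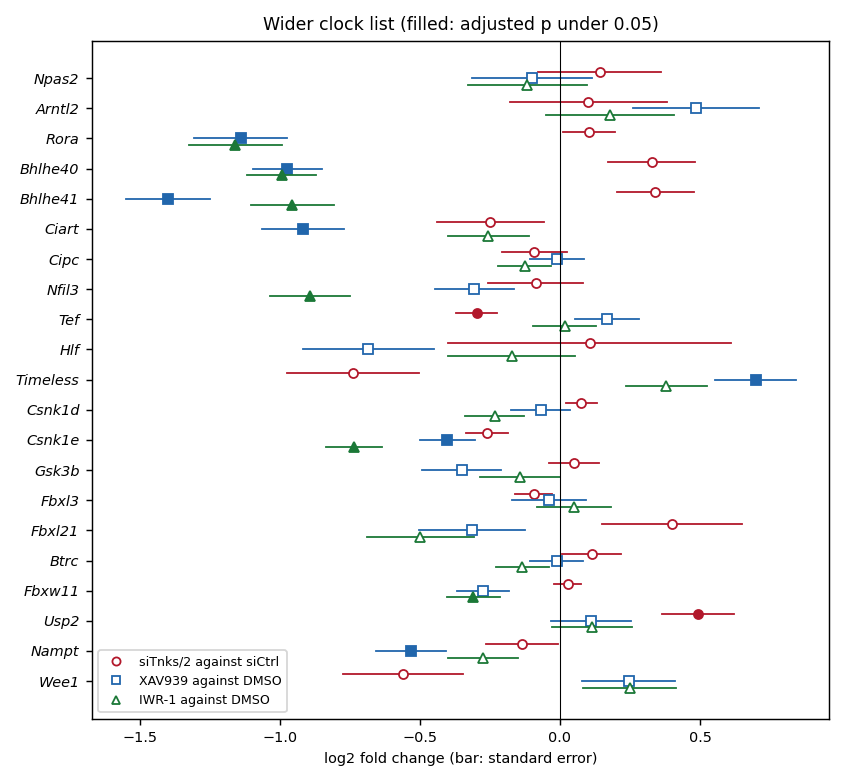
Log2 fold changes of the tested genes of the wider clock list that are reported here, on knockdown, with XAV939 and with IWR-1, with standard errors as bars and filled symbols for an adjusted p-value under 0.05. *Rora*, *Bhlhe40* and *Bhlhe41* lie between -0.96 and -1.40 with both inhibitors.

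The genes whose course over the 15 libraries was most like that of *Arntl* and of *Dbp* were sought among 13341 genes tested in both tables, by the root-mean-square difference of log2 CPM after centring on the mean of each table. *Arntl* was nearest to *Bhlhe40* at 0.122 and then to *Lpar1*, a lysophosphatidic acid receptor gene, at 0.124. For scale, the root-mean-square of *Arntl* itself about those means was 0.388. *Per1* ranked 145 at 0.240. *Dbp* was nearest to *Rab3il1* at 0.174, *Amdhd2*, an enzyme gene of amino sugar breakdown, at 0.188 and *Rex1bd* at 0.194, with its own root-mean-square at 0.392. *Per3* ranked 211 at 0.268. The points share libraries and treatments, and the measure carries no test.

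Marker lists moved with the same contrasts. Of the 10 chondrocyte markers, 4 rose past the threshold on knockdown, 4 with XAV939 and 10 with IWR-1, and none fell. Over all genes, 10.4%, 7.57% and 16.2% rose by that rule, and the knockdown share rested on single libraries, as given above. The 3 fibroblast-type collagens summed to 11863 to 14783 CPM in DMSO, 6144 to 7989 CPM under XAV939, 5693 to 8550 CPM under IWR-1, 5226 to 8972 CPM in siCtrl and 2714 to 7746 CPM in siTnks/2. Leukocyte markers summed to 35.0 to 44.4 CPM in DMSO, 31.7 to 38.5 CPM under XAV939, 14.4 to 20.2 CPM under IWR-1 and 8.33 to 11.98 CPM over both siRNA groups, with *Adgre1* at 0 in siTnks/2, and the endothelial marker *Emcn* was at 0 in IWR-1. The part of these shifts in the clock values was not tested, and fewer cells of a type and less RNA per cell cannot be told apart in bulk libraries.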

How the data were processed

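RNA of 15 libraries was sequenced on a stranded poly(A) protocol. Per the labels, the submitters' processing notes name Trimmomatic 0.32, TopHat2 2.0.13 and HTSeq 0.6.1p1 with build mm10. The deposited values are raw read counts per Entrez gene ID, in a siRNA table (6 libraries) and a drug table (9 libraries). The gene annotation and strand setting of the counting are not given in the sources used here. Of 24134 IDs, 24051 matched a symbol of the RefSeq gene list.

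Counts were fitted in R 4.3.3 with edgeR 4.0.16 (filterByExpr, TMM, quasi-likelihood F test), 1 model per table and 1 over both for differences of effects, with Benjamini-Hochberg adjustment over all 13672, 13873 or 14271 genes. Log2 CPM in the likeness measure used a prior count of 2. Exon length was the union of exons in GENCODE vM21. DESeq2 1.42.0, RLE and upper-quartile scaling, other filters, the DEG limits, fits of the 2 groups alone, a replicate block and fits leaving out each library were alternatives. The steps were tested on simulated data.

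The clock genes and the wider list were chosen with earlier results of these data known. Named genes are the 10 members, *Tnks*, *Tnks2*, each wider-list gene past an adjusted p-value of 0.05 in a comparison with controls, and the 3 nearest genes to *Dbp* and *Arntl*. Some genes under this rule are left out of the text and figures. Others were named after their values were seen. The replicate numbers in the titles were taken as a possible pairing of the libraries, which the main fits did not use. After removing group means, same-numbered libraries correlated at 0.143 to 0.553 (9 drug pairs) and 0.424 to 0.519 (3 siRNA pairs), all over 0.1. Other pairs reached 0.318 and 0.0972, so the ranges overlapped in the drug set and not in the siRNA set. Replicates are described as biological, and p-values cover the spread between them. No 2 replicates were alike within counting noise. Reads carry no molecular identifiers.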

Additional observations from a re-analysis of the deposited data

Results flagged for a closer look

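The effects of knockdown and of an inhibitor differed for 4 clock genes, by a test of the difference itself in 1 edgeR model over 15 libraries, adjusted over 14271 genes. Against XAV939, the knockdown effect was 1.39 higher on the log2 scale for *Arntl*, and the differences were -1.12 for *Per3* and -1.24 for *Dbp*. Against IWR-1, the differences were 1.42 for *Arntl*, 0.70 for *Per1*, -1.21 for *Per3* and -0.87 for *Dbp*. *Arntl* passed the threshold with opposite signs, rising on knockdown and falling with both drugs, whereas the knockdown changes of *Per1*, *Per3* and *Dbp* did not pass it. Groups of 3 libraries were too small for a search for single outlying samples.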

How the results depend on the processing

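Of 380 values of the clock genes under alternative settings, 360 kept their direction and side of the threshold, 6 lost the threshold, 7 gained it and 7 changed sign. None of the sign changes was in a called value. On knockdown, *Clock* ranged from -0.098 to 0.16 over fits leaving out 1 library (below 0 without siCtrl replicate 2, at -0.021, or siTnks/2 replicate 3), *Per3* from -0.12 to 0.041 (above 0 without siCtrl replicate 1, siCtrl replicate 3, at 0.029, or siTnks/2 replicate 3, at 0.0098) and *Nr1d2* from -0.0091 (without siCtrl replicate 2) to 0.19. With XAV939, *Clock* ranged from -0.26 to 0.11 (above 0 without DMSO replicate 3). RLE and upper-quartile scaling, the filters and DESeq2 kept every count of the 3 comparisons with controls. Under the DEG limits, which can only lower a count, the counts were 0 in all 3. Pairing by the replicate block gave counts of 2 on knockdown, 5 with XAV939, 8 with IWR-1, 2 between the drugs, and 5 and 6 for the differences of effects, and the calls it changed are given beside each gene, with no other clock gene call changed. Over fits leaving out 1 library, the counts ranged over 0 to 1, 4 to 5, 5 to 7, 0 to 0, 3 to 4 and 3 to 6 in that order. Against IWR-1, *Per1* lost its difference of effects without siCtrl replicate 1, and upper-quartile scaling added *Nr1d2*. The share of higher calls over all genes in the difference from XAV939 was 59.9%, and 47.3% under upper-quartile scaling. DESeq2 called 4 wider-list genes on knockdown in place of 2, where it called 22.6% of 13844 genes. Of 206 values of called wider-list genes, 22 lost the threshold and none changed sign. Each clock gene had at least 178 reads in every library, and 3 libraries per group limit the estimates of spread. The causes of the changed calls were not tested.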
